A study of Mus musculus with 4 samples.

Results

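The DNA repair and damage checkpoint genes described here are 39 mouse genes, chosen by symbol and found by gene ID, of 50600 genes in the counted annotation and 21764 protein-coding genes among them. They fall into 11 roles, from the sensing of broken DNA to its repair. RNA was sequenced from primary regulatory T cells of C57BL/6NJ mice, the CD4+ T cells that hold other immune cells in check, in 4 libraries that the labels number as biological replicates 1 to 4. There is 1 group, with no treated or untreated arm, no genetic change named, age unknown and sex not recorded. All 4 libraries share a donor identifier, a linked protocol is for CD4+ T cell differentiation, and the output names in the headers carry the words activated and 24h. The assay is named total RNA-seq while a linked library protocol is for polyA+ RNA, so it is not settled which RNA the levels are a share of. Nothing in the labels says that the libraries came from separate animals or cultures, so each p-value measures only the spread between these 4 libraries, which may be technical.

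A cell that finds a broken or chemically damaged base pair must choose a repair route and hold the cell cycle while it works. Ends of a broken chromosome are detected by the Mre11a, Rad50 and Nbn complex, which activates the kinase Atm, while exposed single-stranded DNA activates Atr, and these kinases pass the signal to Chek1 and Chek2. Breaks are then rejoined directly through the Ku dimer and Prkdc or copied from the sister chromatid by homologous recombination, in which Brca1 and Brca2 take part. The Fanconi anemia proteins open crosslinks between the DNA strands, mismatch repair corrects copying errors, and base excision repair replaces damaged bases. In T cells direct joining serves receptor gene rearrangement in the thymus, and the routes named here serve the rapid DNA copying that follows activation.

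The libraries held 38590127, 44357436, 48312918 and 93035969 counted fragments in replicates 1 to 4. Levels are given in TPM (counts divided by the length of the union of a gene's exons and scaled to a common total per library). The T cell markers Cd3e, Cd3d, Cd4, Cd5 and Lck each averaged at least 100 TPM (5 of 5). Of the 5 regulatory T cell markers, 4 averaged at least 100 TPM, among them Foxp3, the defining factor of these cells, at 109 TPM. The other, Ikzf2, often high in thymus-derived regulatory T cells, averaged 4.32 TPM. All 6 division markers were at 238 to 822 TPM. The B cell marker Cd79a averaged 1.03 ± 0.494 TPM (SD, n = 4), Pax5 and Ms4a1 were at 0.150 and 0.0573 TPM, and the 3 neutrophil markers were at 0. Macrophage markers summed to 6.96 TPM, dendritic cell markers to 6.07 TPM and NK cell markers to 0.364 TPM. Cd8b1 averaged 21.8 TPM and Cd8a 1.11 TPM. Replicate 1 had the highest share of fragments on Gm42418, a gene that overlaps ribosomal RNA sequence, with 2.04% of its fragments against 0.0704% to 0.175% in the other libraries, and the lowest share of TPM on protein-coding genes, with 88.2% against 95.6% to 96.6%.

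Of the 39 genes, 31 had a promoter sequence in the RefSeq table for GRCm38.p6, which runs from 250 bases before to 50 bases after each gene's start. Rad50, Nbn, Prkdc, H2afx, Exo1, Rad54b, Xrcc2 and Fancd2 were not matched. The 31 windows had a median GC content of 59.7%, against 56.3% in the windows of 17492 protein-coding genes, and a median of 22 CpG pairs, against 13. A CCAAT box (the letters CCAAT on either strand, the site of the factor NF-Y) was found in 21 of 31 member windows (67.7%), against 39.03% of all windows. E2F-type letters (TTTCCCGC, TTTGGCGC, TTTCGCGC or TTTGCCGC on either strand), the kind of site through which E2F factors switch on genes of DNA copying, were found in 6 of 31 member windows (19.4%), against 2.92% of all windows. The cell cycle element CHR (TTTGAA or TTCGAA on either strand) was in 3 of 31 (9.68%), against 18.2%, and the NRF1 element in 3 of 31 (9.68%), against 6.60%. The letters TTCGAA read alike on both strands, and E2F-type letters that end in GCGC can overlap an NRF1 element. These matches are a description of letters in a window, with no measure of factor binding behind them. The 17492 windows were not limited to expressed genes, and the part of expression or CpG content in these differences was not tested.

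The 6 promoters with E2F-type letters are shown because these letters are the rarest of the motifs searched over all protein-coding windows, although CHR and NRF1 letters are rarer among the members, each read along the gene's own strand from 5′ to 3′ with the matched letters in capitals. Bard1 lies at chr1:71102923-71103222 (minus strand), Brca2 at chr5:150522371-150522670 (plus strand), Chek2 at chr5:110839733-110840032 (plus strand), Fancg at chr4:43010252-43010551 (minus strand), Msh6 at chr17:87974800-87975099 (plus strand) and Xrcc6 at chr15:82016119-82016418 (plus strand). Counted from the RefSeq gene start as position 0, the first matched base is at -209 in Bard1, -168 in Brca2, -152 in Chek2, -52 in Fancg, 15 in Msh6 and -46 in Xrcc6.
Bard1: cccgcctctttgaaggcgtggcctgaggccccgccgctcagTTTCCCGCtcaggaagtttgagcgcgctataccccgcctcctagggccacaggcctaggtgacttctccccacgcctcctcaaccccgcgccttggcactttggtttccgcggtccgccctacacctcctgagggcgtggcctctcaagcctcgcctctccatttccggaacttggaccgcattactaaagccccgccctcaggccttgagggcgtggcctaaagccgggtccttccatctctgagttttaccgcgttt
Brca2: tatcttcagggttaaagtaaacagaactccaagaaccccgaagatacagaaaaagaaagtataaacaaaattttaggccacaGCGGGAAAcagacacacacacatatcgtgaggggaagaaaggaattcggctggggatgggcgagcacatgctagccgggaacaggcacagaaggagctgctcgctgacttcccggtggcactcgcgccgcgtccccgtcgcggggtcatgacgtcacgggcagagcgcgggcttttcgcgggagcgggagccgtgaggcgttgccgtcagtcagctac
Chek2: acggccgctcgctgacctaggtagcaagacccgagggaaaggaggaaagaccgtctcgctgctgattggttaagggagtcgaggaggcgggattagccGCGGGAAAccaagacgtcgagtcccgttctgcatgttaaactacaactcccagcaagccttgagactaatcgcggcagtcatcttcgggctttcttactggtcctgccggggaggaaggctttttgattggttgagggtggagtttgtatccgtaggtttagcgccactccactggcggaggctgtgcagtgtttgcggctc
Fancg: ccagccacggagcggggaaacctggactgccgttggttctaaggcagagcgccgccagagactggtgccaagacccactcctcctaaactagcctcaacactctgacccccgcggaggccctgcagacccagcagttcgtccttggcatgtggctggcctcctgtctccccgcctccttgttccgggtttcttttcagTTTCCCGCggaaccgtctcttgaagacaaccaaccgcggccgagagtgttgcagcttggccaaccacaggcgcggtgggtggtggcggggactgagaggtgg
Msh6: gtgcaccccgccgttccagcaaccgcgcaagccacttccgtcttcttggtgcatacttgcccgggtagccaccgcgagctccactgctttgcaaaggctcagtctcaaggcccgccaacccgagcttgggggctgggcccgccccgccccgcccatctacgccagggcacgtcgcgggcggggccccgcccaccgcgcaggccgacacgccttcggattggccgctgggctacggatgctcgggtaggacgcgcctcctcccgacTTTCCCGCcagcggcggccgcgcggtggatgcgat
Xrcc6: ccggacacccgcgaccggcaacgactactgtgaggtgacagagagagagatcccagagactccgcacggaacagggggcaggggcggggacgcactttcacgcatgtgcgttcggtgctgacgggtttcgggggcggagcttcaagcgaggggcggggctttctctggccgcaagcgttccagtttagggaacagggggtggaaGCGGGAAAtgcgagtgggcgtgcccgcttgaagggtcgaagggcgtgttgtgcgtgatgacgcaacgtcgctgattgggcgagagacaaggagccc

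All 6 windows carried TTTCCCGC or its reverse complement, GCGGGAAA. Their mean levels ran from 18.1 TPM for Chek2 to 140.1 TPM for Msh6, with a median of 33.3 TPM. The 25 members whose windows held none of the exact E2F-type letters ran from 10.02 to 418 TPM, with a median of 36.8 TPM. Near matches to those letters were not counted. The windows end 50 bases after the RefSeq start, which in Xrcc6 lies 28534 bases from the start of the gene in the GENCODE annotation, and in Fancc 65533 bases from it. Across the 31 genes the median distance between the starts was 12 bases, and 22 lay within 100 bases.

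The promoters of Apex1, the member with the highest level, and of Xrcc3, the member with the lowest p in edgeR's test of spread between libraries, are shown with their CCAAT boxes in capitals on either strand, where the reverse reads ATTGG. Apex1 lies at chr14:50924699-50924998 (plus strand) and Xrcc3 at chr12:111813830-111814129 (minus strand).
Apex1: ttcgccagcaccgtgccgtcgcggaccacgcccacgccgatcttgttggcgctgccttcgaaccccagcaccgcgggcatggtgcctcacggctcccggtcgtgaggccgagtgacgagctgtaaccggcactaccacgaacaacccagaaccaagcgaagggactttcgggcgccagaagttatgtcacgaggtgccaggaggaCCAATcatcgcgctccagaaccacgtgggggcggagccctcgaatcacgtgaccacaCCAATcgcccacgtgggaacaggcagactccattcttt
Xrcc3: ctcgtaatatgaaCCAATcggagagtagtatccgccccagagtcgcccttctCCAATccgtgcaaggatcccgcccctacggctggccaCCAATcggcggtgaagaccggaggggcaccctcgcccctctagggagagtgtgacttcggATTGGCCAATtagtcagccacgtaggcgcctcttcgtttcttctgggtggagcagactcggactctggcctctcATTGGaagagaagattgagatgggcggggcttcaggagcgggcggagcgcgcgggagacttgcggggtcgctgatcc

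The Apex1 window held 2 CCAAT boxes and the Xrcc3 window 6, of which a pair on opposite strands abut.

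Every one of the 39 genes was detected in every library, with 350 to 46641 fragments behind each value. Their mean levels spanned 10.02 TPM for Atr to 418 TPM for Apex1, with a median of 36.8 TPM, against 31.0 TPM among the 10383 protein-coding genes with a mean of at least 1 TPM, and 24 of 39 members lay above that comparison median. A level of at least 10 TPM in every library was found in 38 of 39 members, against 35.0% of all 21764 protein-coding genes (7616) and 73.4% of those with a mean of at least 1 TPM. Atr was the exception, at 9.04, 10.5, 11.02 and 9.48 TPM in replicates 1 to 4. The share describes a list of named genes and was not tested. In bulk RNA, fewer cells expressing a gene and less of its RNA per cell cannot be told apart.

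**Figure D1:**
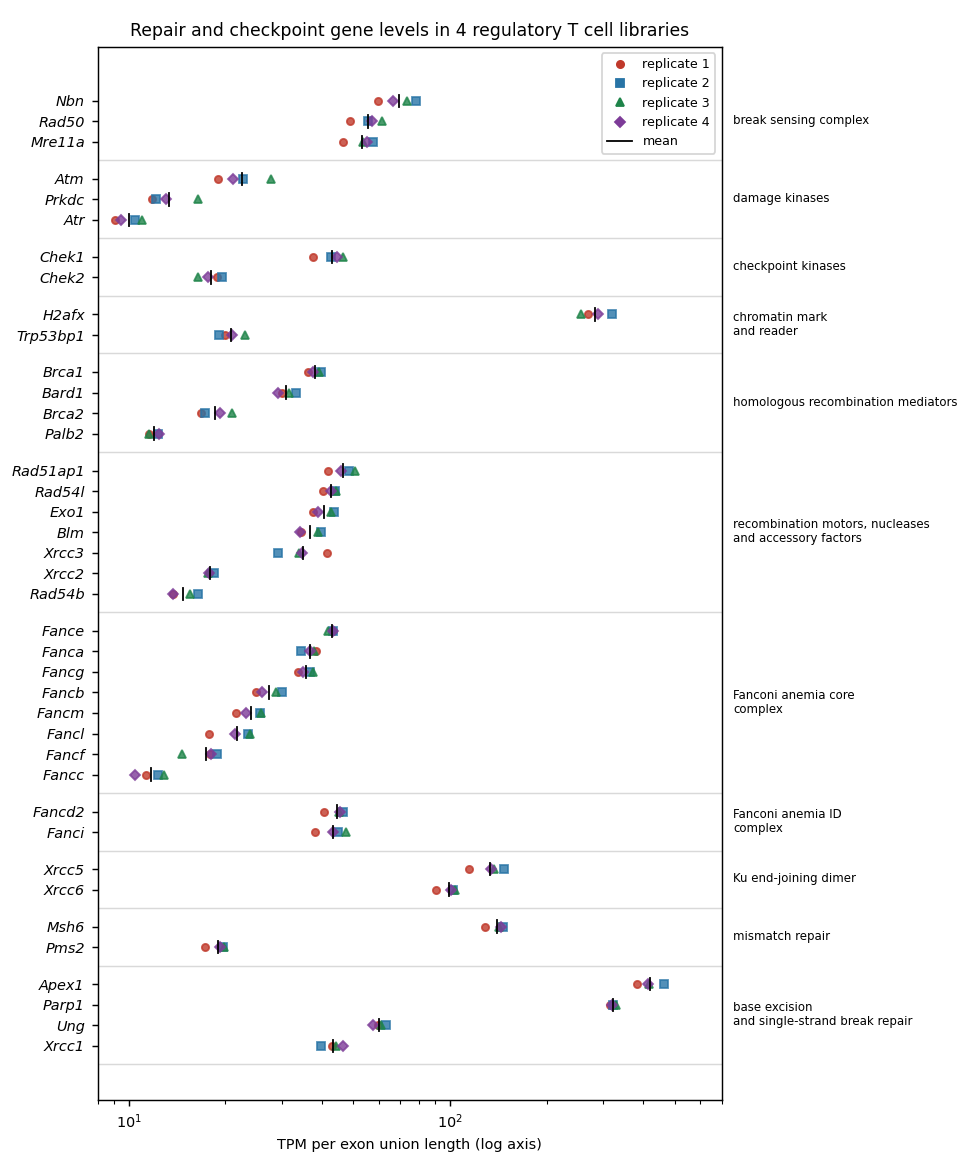
TPM on a log axis for each of the 39 genes, grouped by role, with 1 point per library and a bar at the mean of 4 libraries. Apex1, Parp1 and H2afx stand at the top, with means of 418, 321 and 283 TPM, and Atr at the bottom with 10.02 TPM.

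The 39 genes together held 2463 ± 124 TPM (SD, n = 4), and 5 of them, Apex1, Parp1, H2afx, Msh6 and Xrcc5, averaged over 100 TPM. Ordered by mean level, 13 of the 38 neighbouring pairs had the upper gene higher in all 4 libraries and 25 did not. In 4 pairs the ranges over libraries lay apart, at Apex1 over Parp1, H2afx over Msh6, Xrcc5 over Xrcc6 and Xrcc6 over Nbn. From Fanci at 43.4 TPM through Xrcc1, Fance and Chek1 to Rad54l at 42.7 TPM, 4 successive pairs were split 2 libraries against 2. Those 5 levels, per exon union length, were thus not separated by their spread.

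**Figure D2:**
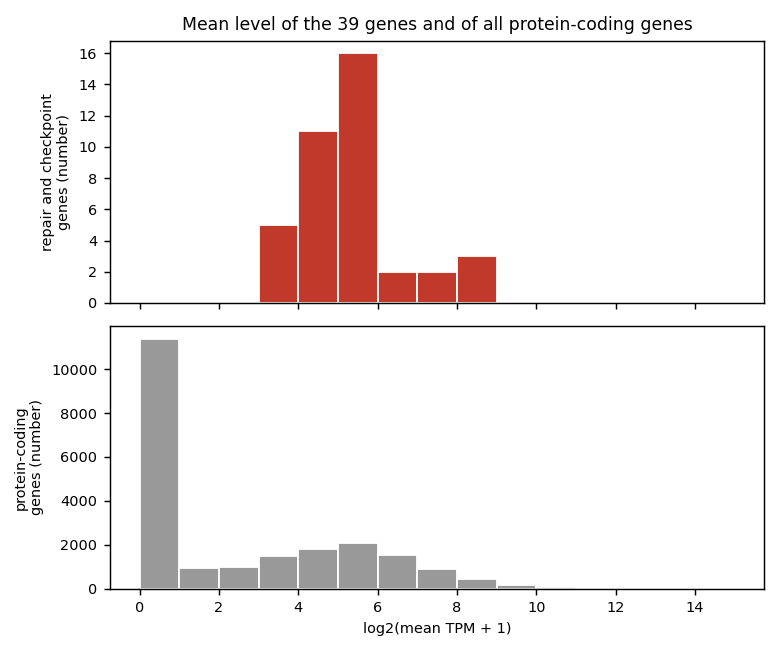
Number of genes by mean level as log2(mean TPM + 1), for the 39 genes in the upper panel and for all 21764 protein-coding genes in the lower one. The 39 genes lie between 10.02 and 418 TPM, while the tallest bar of the lower panel is at 0 to 1 on the log2 scale.

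Because a TPM depends on the length it is divided by, each level was also computed with the length of the transcript that has the longest coding sequence in GENCODE release 21, a choice made after seeing the data. The exon union was as long as that transcript in 6 of 39 genes and at least 2 times as long in 7, with a median ratio of 1.32 and a highest ratio of 2.92, in Atr. This rescaling moved the median expressed protein-coding gene by -0.19 and the median member by -0.15 on the log2 scale. Apex1 at 328, Parp1 at 300.1 and H2afx at 193 TPM stayed at the top of the order, while the lowest level was then that of Prkdc at 9.55 TPM and Atr stood at 19.98 TPM. Ung rose over 100 TPM, to 114 TPM, while Msh6 at 95.9 and Xrcc5 at 91.1 TPM fell under it. The genes from Fanci to Rad54l named above came apart, with Fanci at 36.9, Xrcc1 at 68.4, Fance at 46.1, Chek1 at 35.7 and Rad54l at 74.5 TPM. Levels below are per exon union length unless the coding transcript is named.

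The break-sensing complex was present as 3 RNAs of similar level per exon union length. Per coding transcript they were further apart, with Mre11a at 65.6, Nbn at 47.6 and Rad50 at 39.7 TPM. Rad50, the coiled-coil ATPase that bridges the ends, had 48.8, 55.5, 61.3 and 57.1 TPM in replicates 1 to 4, and Mre11a, the nuclease, had 46.3, 57.6, 53.7 and 55.3 TPM. Nbn, which carries the complex to Atm, had 59.8, 78.5, 73.4 and 66.4 TPM. Nbn was above Rad50 in 4 of 4 libraries, with a mean log2 ratio of 0.32 ± 0.13 (SD, n = 4; exact two-sided sign-flip permutation p = 0.125, the smallest that this test can give with 4 libraries, and 0.150 after Benjamini-Hochberg adjustment over 12 partner pairs). Mre11a was above Rad50 in 1 of 4, with a mean log2 ratio of -0.07 ± 0.10 (exact sign-flip permutation p = 0.375, adjusted 0.409). Per coding transcript, which in Mre11a is 3286 bp of a 5927 bp exon union, Mre11a was instead above Rad50 in 4 of 4 libraries, at a mean log2 ratio of 0.72, so the order of these partners is not fixed by the data.

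The 3 large damage kinases were the lowest of the 11 roles, with a median of 13.4 TPM. Atm, the kinase activated at broken ends, had 19.0, 22.7, 27.7 and 21.1 TPM in replicates 1 to 4. Prkdc, the catalytic subunit of the kinase that works with Ku, had 11.8, 12.2, 16.4 and 13.1 TPM. Both were highest in replicate 3. Atr, the kinase of stalled replication forks, averaged 10.02 ± 0.913 TPM, 2.25-fold below Atm and lower in 4 of 4 libraries (mean log2 ratio of Atr to Atm -1.17 ± 0.11, SD, n = 4; exact sign-flip permutation p = 0.125, adjusted 0.150). That direction turned per coding transcript, where the mean log2 ratio was 0.30 and Atr was higher in 4 of 4 libraries: the exon union of Atr is 23629 bp and its coding transcript 8102 bp, against 10338 and 9787 bp in Atm.

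Of the checkpoint kinases downstream, Chek1, the target of Atr, was the more abundant. Chek1 had 37.5, 42.7, 46.6 and 44.4 TPM in replicates 1 to 4, and Chek2, the target of Atm, had 18.8, 19.5, 16.4 and 17.7 TPM. The ranges did not overlap, and Chek1 was 2.36-fold above Chek2 (mean log2 ratio 1.24 ± 0.22, SD, n = 4; exact sign-flip permutation p = 0.125, adjusted 0.150). The direction was the same per coding transcript, with a mean log2 ratio of 1.13.

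The histone and its reader at break sites stood far apart. H2afx, the histone variant that Atm, Atr and Prkdc phosphorylate beside a break, lies in 1 exon at chr9:44334694-44336077 (plus strand) and had 268, 319, 255 and 288 TPM in replicates 1 to 4. Histone RNAs are in part not polyadenylated, so this level would depend on the kind of library. Trp53bp1, the reader that favours direct end joining over recombination, had 19.9, 19.1, 23.1 and 20.9 TPM. Replicate 2 was the highest library for H2afx and the lowest for Trp53bp1, and replicate 3 the reverse.

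The homologous recombination mediators ranged from 11.96 to 38.1 TPM. Brca1, the ubiquitin ligase that promotes resection of the ends, had 36.1, 39.7, 39.1 and 37.5 TPM in replicates 1 to 4, and its obligate partner Bard1 had 30.0, 33.1, 31.6 and 29.2 TPM. Bard1 was below Brca1 in 4 of 4 libraries by 1.23-fold (mean log2 ratio -0.30 ± 0.05, SD, n = 4; exact sign-flip permutation p = 0.125, adjusted 0.150), and by 1.60-fold per coding transcript. Brca2, the breast cancer susceptibility protein that acts on resected ends, had 16.8, 17.3, 20.9 and 19.3 TPM, and Palb2, which tethers Brca2 to Brca1, had 11.6, 12.3, 11.6 and 12.4 TPM. Palb2 was below Brca2 in 4 of 4 libraries (mean log2 ratio -0.63 ± 0.16; exact sign-flip permutation p = 0.125, adjusted 0.150). Per coding transcript that ratio was -0.01, with Palb2 higher in 2 of 4 libraries, so no order between Palb2 and Brca2 holds under both lengths.

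Among the 7 recombination motors, nucleases and accessory factors, 4 lay at 36.8 to 46.6 TPM: Rad51ap1, an accessory factor of strand invasion, Rad54l, a DNA translocase, Exo1, a nuclease of end resection, and Blm, the helicase mutated in Bloom syndrome. Per coding transcript those 4 were further apart, from 30.0 TPM for Exo1 to 81.99 TPM for Rad51ap1. Rad54l had 40.4, 43.9, 44.1 and 42.5 TPM in replicates 1 to 4, and its relative Rad54b had 13.7, 16.4, 15.5 and 13.7 TPM. Rad54l was 2.89-fold above Rad54b (mean log2 ratio 1.53 ± 0.09, SD, n = 4; exact sign-flip permutation p = 0.125, adjusted 0.150), higher in 4 of 4 libraries under either length. The overlapping gene Fsbp shares 35.8% of the Rad54b exon union on the same strand, and fragments there were not counted for either, so the Rad54b level is uncertain. Xrcc2 and Xrcc3, recombination factors named for X-ray sensitive cells, averaged 17.95 ± 0.373 and 34.8 ± 5.10 TPM (SD, n = 4).

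The 8 Fanconi anemia core complex genes, which form or support the ligase on the crosslink, had a median of 25.8 TPM and ran from 11.7 ± 1.05 TPM for Fancc to 42.8 ± 0.715 TPM for Fance. Fanca averaged 36.8, Fancg 35.7, Fancb 27.4, Fancm, the DNA translocase, 24.1, Fancl, the catalytic ligase subunit, 21.7 and Fancf 17.4 TPM. For the pair that the ligase modifies, Fancd2 had 40.6, 46.3, 45.1 and 45.6 TPM in replicates 1 to 4 and Fanci 38.0, 44.7, 47.6 and 43.2 TPM. Their mean log2 ratio was 0.04 ± 0.08 (SD, n = 4), with Fancd2 higher in 3 of 4 libraries (exact sign-flip permutation p = 0.50, adjusted 0.50), and 0.25 per coding transcript, with Fancd2 higher in 4 of 4.

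The Ku dimer, the ring that slides onto broken ends for direct joining, was far above the kinase it recruits. Xrcc5, the larger Ku subunit, had 115, 147, 137 and 134 TPM in replicates 1 to 4, and Xrcc6, the smaller, had 90.3, 102, 104 and 101 TPM. Xrcc6 was below Xrcc5 in 4 of 4 libraries by 1.34-fold (mean log2 ratio -0.42 ± 0.07, SD, n = 4; exact sign-flip permutation p = 0.125, adjusted 0.150). Per coding transcript their mean log2 ratio was 0.02, with Xrcc6 higher in 3 of 4 libraries (exact sign-flip permutation p = 0.625), so a difference between the Ku subunits depends on the length used. Prkdc was 9.99-fold below Xrcc5 (mean log2 ratio -3.32 ± 0.22; exact sign-flip permutation p = 0.125, adjusted 0.150) and 9.58-fold below it per coding transcript.

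In mismatch repair, Msh6, a subunit of the sensor that binds mispaired bases, had 129, 146, 142 and 144 TPM in replicates 1 to 4. Pms2, the nuclease subunit that acts after recognition, had 17.3, 19.6, 19.8 and 19.2 TPM. Msh6 was 7.39-fold above Pms2 (mean log2 ratio 2.89 ± 0.03, SD, n = 4; exact sign-flip permutation p = 0.125, adjusted 0.150), and 5.00-fold above it per coding transcript. Other genes on the same strand overlap 5.90% of the Pms2 exon union, where fragments were not counted.

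Base excision and strand break repair held the largest summed level of the 11 roles, 843 ± 36.2 TPM over 4 genes. Apex1, the endonuclease that cuts at a lost base, lies at chr14:50924968-50927139 (plus strand) and had 381, 462, 416 and 414 TPM in replicates 1 to 4. The gene Pip4p1 overlaps 61.7% of the Apex1 exon union on the opposite strand, and the counting used strand. Parp1, the sensor of nicks that makes poly(ADP-ribose), lies at chr1:180568924-180601254 (plus strand) and had 314, 321, 329.6 and 319.7 TPM. Xrcc1, the scaffold that Parp1 brings in, had 43.0, 39.6, 44.3 and 46.3 TPM, 7.42-fold below Parp1 (mean log2 ratio of Parp1 to Xrcc1 2.89 ± 0.10, SD, n = 4; exact sign-flip permutation p = 0.125, adjusted 0.150) and 4.40-fold below it per coding transcript. Ung, the glycosylase that removes uracil from DNA, had 59.6, 63.2, 60.9 and 57.5 TPM, and averaged 114 TPM per coding transcript.

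**Figure D3:**
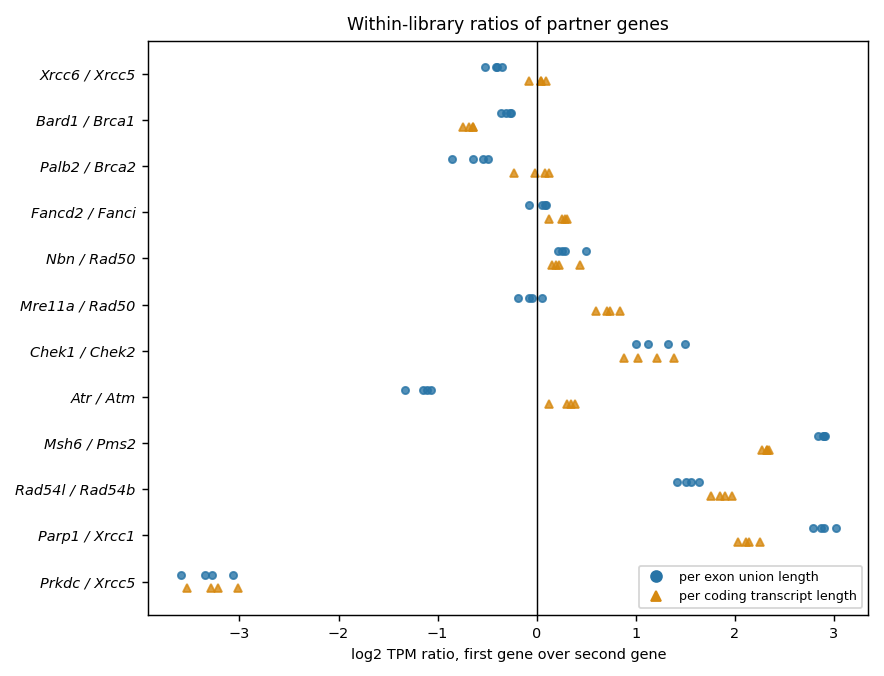
Log2 ratio of TPM for the 12 partner pairs, with 1 point per library, shown per exon union length and per coding transcript length. The ratios of Xrcc6 to Xrcc5, Mre11a to Rad50 and Atr to Atm change sign between the lengths, with means of 0.02, 0.72 and 0.30 per coding transcript.

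The 8 lists of other repair and damage signalling genes, 116 measured genes in all, set the 39 in their pathways. Their median level was 32.9 TPM, and 94 of 116 reached 10 TPM in every library. Among other recombination genes the median was 26.6 TPM, led by Sfr1 at 235, Fignl1 at 97.2 and Swi5 at 63.6 TPM, with Rad51c lowest at 6.48 TPM. Other Fanconi anemia genes had a median of 53.8 TPM, led by Usp1, which removes ubiquitin from Fancd2, at 206 TPM, Cenpx at 157 and Faap20 at 77.3 TPM, with the nuclease Fan1 lowest at 6.46 TPM. The other end-joining genes had a median of 11.3 TPM, led by the polymerases Poll at 48.7, Polm at 27.4 and Polq at 23.8 TPM, and with Dclre1c, the nuclease Artemis, lowest at 3.37 TPM. The 3 other mismatch repair genes, Mlh3, Pms1 and Msh3, were at 11.5, 10.5 and 9.39 TPM, all below Msh6.

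Other base excision genes had a median of 24.9 TPM but reached 387 TPM in Lig1 and 381 TPM in Fen1, the ligase and flap nuclease of lagging strand synthesis, and 117 TPM in Parp2, with the glycosylase Neil2 lowest at 0.422 TPM. Nucleotide excision repair had a median of 37.7 TPM, with Ddb1 at 686 and Rad23b at 169.7 TPM among the highest, with Uvssa lowest at 4.98 TPM. Translesion and direct reversal genes had a median of 27.6 TPM, with Polh at 90.1, Mad2l2 at 55.8 and Rad18 at 38.0 TPM at the top and Mgmt lowest at 11.3 TPM. Other damage signalling genes had a median of 50.2 TPM, led by the kinase Mapkapk2 at 399, the fork protection factor Tipin at 324 and Babam1 at 166 TPM. Atrip, the partner of Atr, was lowest at 0.287 TPM, and 49.9% of its exon union overlaps another gene on the same strand, where fragments were not counted, so its level is uncertain.

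None of the 39 genes was called as varying between the 4 libraries beyond genes of like abundance. Over 12396 genes tested, edgeR's quasi-likelihood dispersion test with Benjamini-Hochberg adjustment called 58 (0.468%), and 0 of the 39. At an unadjusted p under 0.05 it gave 661 genes (5.33%) and 4 of the 39, which are Xrcc3, Atm, H2afx and Prkdc. Without replicate 1 the test called 37 genes, and again 0 of the 39. In simulated counts it recovered 75 of 100 genes with 1 library changed 2-fold. Smaller changes were not simulated, so 0 calls do not show equal levels. DESeq2 marked 69 genes as dispersion outliers, whose own spread lay far above the fitted trend, 0 of them among the 39. Over the 39 genes the coefficient of variation of TPM had a median of 8.20%, against 8.10% over expressed protein-coding genes. This comparison holds for TPM only. After TMM scaling, which the edgeR test uses, the members ran from 1.12% in Rad54l to 18.7% in Xrcc3, against a median of 7.94% over all genes tested. Most of the 39 lay under that median, with Atr in the middle of their order at 5.82%. The genes behind that median were not matched to the members by abundance. None of the 116 other repair genes was called (0 of 114 tested by edgeR, 3 at an unadjusted p under 0.05).

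The 4 genes nearest to that threshold are given by their deviation from the mean over libraries, in log2 CPM after TMM scaling. Xrcc3, at chr12:111803192-111813873 (minus strand), deviated by 0.35, -0.27, -0.08 and -0.00 in replicates 1 to 4 (adjusted p = 0.496 by edgeR), with 41.5, 29.1, 33.8 and 34.7 TPM. Replicate 1, the highest library for Xrcc3, was also the one with the high share on Gm42418, and the part of that share in the Xrcc3 level was not tested. Atm deviated by -0.15, -0.00, 0.25 and -0.10 (adjusted p = 0.83 by edgeR) and Prkdc by -0.08, -0.14, 0.25 and -0.03 (adjusted p = 0.907 by edgeR). H2afx deviated by 0.02, 0.16, -0.20 and 0.02 (adjusted p = 0.856 by edgeR). Replicate 3 was thus the highest library for both kinases and the lowest for H2afx.

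Deviations are also given by coding length over all protein-coding genes tested. The 114 genes with a coding sequence of 8 kb or more had median deviations of 0.00, -0.14, 0.14 and -0.01 in replicates 1 to 4, and the 3495 genes under 1 kb had -0.01, 0.03, -0.03 and 0.01. The 3 members of at least 8 kb, Atm, Brca2 and Prkdc, had medians of -0.08, -0.12, 0.25 and -0.03, and Atm and Prkdc were singled out above for their spread. The 8 members of 4 to 8 kb had medians of -0.02, 0.04, 0.01 and -0.02, against 0.03, -0.07, 0.05 and -0.02 in all 645 genes of that length. Those 8 members were mixed, and in replicate 2 they ran from -0.14 in Trp53bp1 to 0.09 in Blm. Fancf, the other member with 1 exon besides H2afx, deviated by 0.13, 0.10, -0.29 and 0.05, and the 272 genes with 1 exon had medians of 0.03, -0.00, -0.05 and 0.00. The part of coding length in the deviations of the members was not tested.

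**Figure D4:**
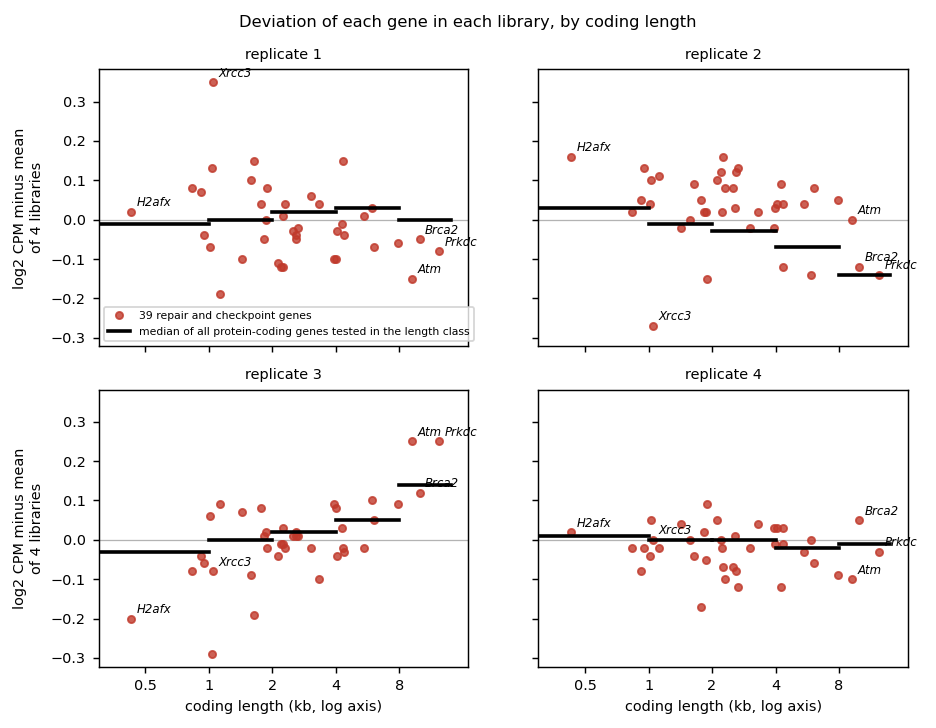
Deviation of log2 CPM after TMM scaling from the mean over the 4 libraries, against coding length on a log axis, for the 39 genes in each library, with the medians of all protein-coding genes by length class. In replicate 3 the genes of 8 kb or more have a median of 0.14, and Atm and Prkdc lie at 0.25.

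Over the whole list the members moved little between libraries. Their median deviation was -0.03, 0.04, 0.01 and -0.02 in replicates 1 to 4, against 0.00, -0.00, 0.00 and 0.00 over all genes tested. In replicate 2, 28 of 39 members (71.8%) lay above their own mean, against 49.3% of all genes, and in replicate 4, 14 of 39 (35.9%), against 50.1%. After TMM scaling Rad54l had the lowest coefficient of variation of the 39, 1.12%, which is under the 1.35% that counting error alone gives at its depth, while in TPM its coefficient of variation was 4.02%.

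Of the 39 genes, 13 (33.3%) had a protein-coding neighbour that runs the other way and starts within 1000 bp upstream of them. The share was 11.7% among expressed protein-coding genes (1210 of 10382) and 6.76% among all (1482 of 21924). Neighbours that overlap a gene at its start were not counted in any of these shares. The closest pairs were Fancd2 with Emc3 at 30 bp, Palb2 with Dctn5 at 56 bp and Apex1 with Osgep at 75 bp. The levels of the 13 neighbours ranged from 0.0753 to 594 TPM. Prkdc averaged 13.4 ± 2.09 TPM and Mcm4, a subunit of the replicative helicase, 594 ± 31.8 TPM at 466 bp. Pms2 averaged 19.0 ± 1.14 TPM and Aimp2 215 ± 15.9 TPM at 117 bp, while Apex1 averaged 418 ± 33.2 TPM and Osgep 24.9 ± 0.933 TPM. Xrcc1 averaged 43.3 ± 2.81 TPM beside Pinlyp at 0.0753 ± 0.151 TPM, at 171 bp. Atm at 22.6 ± 3.71 TPM and Npat, a regulator of histone genes, at 36.9 ± 3.34 TPM, 307 bp apart, were closer, as were Brca1 at 38.1 ± 1.63 and Nbr1 at 27.5 ± 1.57 TPM, 194 bp apart (SD, n = 4 throughout). The rest were Chek2 with Hscb, Rad51ap1 with D6Wsu163e, Rad54l with Pomgnt1, Xrcc3 with Zfyve21 and Fancb with Mospd2.

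**Figure D5:**
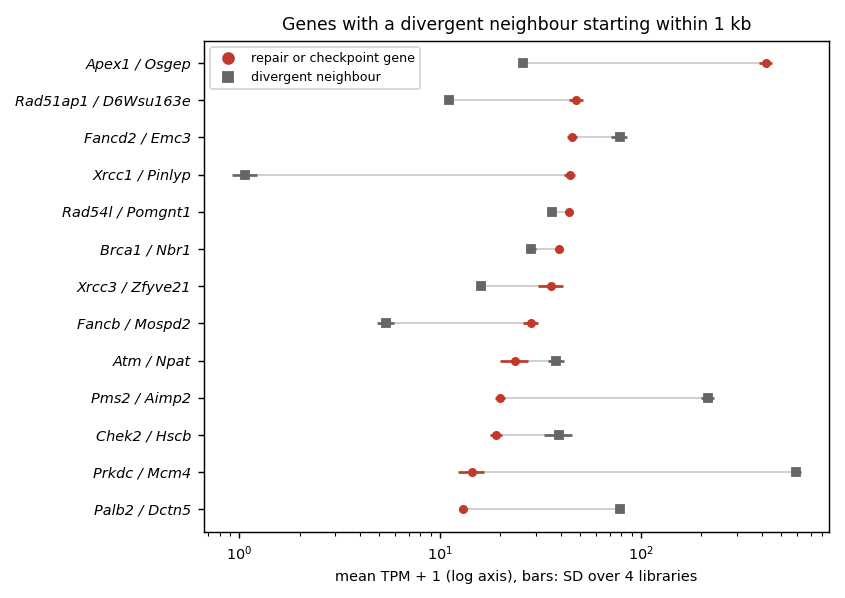
Mean TPM + 1 on a log axis for the 13 members with a divergent neighbour and for that neighbour, joined by a line, with bars for the SD over 4 libraries. The lines run in both directions, from Prkdc at 13.4 against Mcm4 at 594 TPM to Xrcc1 at 43.3 against Pinlyp at 0.0753 TPM.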

How the data were processed

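RNA-seq of 4 libraries of 1 group was analysed. Per the file headers, the authors ran featureCounts 1.4.6-p4 to count fragments over exons grouped by gene (GENCODE mouse release 13, strand setting 2, both ends mapped) on mm10, and the deposited values are raw counts. Fragments that map to several places or overlap 2 genes did not count. Which aligner made the alignments was not given in the labels or headers.

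Gene symbols came from GENCODE mouse release 21 by ID without version (50376 of 50600 matched, 224 did not). TPM was computed from the counts and the deposited exon union lengths. Spread between libraries was tested with edgeR 4.0.16 in R 4.3.3 (intercept-only robust quasi-likelihood fit, filterByExpr, TMM scaling, Benjamini-Hochberg threshold 0.05), with DESeq2 1.42.0 as an alternative, and was tested on simulated data. Partner ratios of log2 TPM were tested with exact two-sided sign-flip permutations over libraries (16 sign patterns). A count of 0 allows up to 3 fragments, 0.0777 CPM in the shallowest library and 0.0322 CPM in the deepest, by counting error alone. Promoters are RefSeq sequences, with coordinates counted from 1. The members, lists, pairs and motifs were chosen with earlier results of these data known. All 39 members are named, and of each other list the 3 highest and the lowest by mean TPM, except items that are not reported here. The planned length from a protein table was replaced by the coding transcript length.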

Additional observations from a re-analysis of the deposited data

Results flagged for a closer look

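Xrcc2, a homologous recombination factor, was at 18.5 TPM in replicate 2, apart from 17.7 to 17.8 TPM in the other 3 libraries. The gap to the nearest library was 0.873 of the whole range, over Dixon's critical value for 4 samples. Chance alone passes that value in about 1 of 20 groups, and 39 genes were looked at. The whole range was narrow, with a mean of 17.95 ± 0.373 TPM (SD, n = 4). After TMM scaling the log2 deviations were 0.08, 0.02, -0.08 and -0.02 in replicates 1 to 4, so replicate 2 did not stand apart on that scale.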

How the results depend on the processing

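No paired analysis was possible because there is 1 group. The count of members called as varying was 0 under every alternative run. Over all genes, where the count was 58, it was 110 with no low-count filter, 36 without a robust prior and 37 to 69 leaving out 1 library at a time, lowest without replicate 1; with DESeq2 size factors it was 59. Members with at least 10 TPM in every library numbered 38, and 22 in FPKM, a unit with another total. The members' median of 36.8 TPM was 39.1 in TPM over protein-coding genes, 33.8 per coding transcript and 11.03 in FPKM, and 36.5 to 37.7 TPM leaving out 1 library at a time. Per coding transcript, 3 mean log2 ratios reversed: Xrcc6 to Xrcc5 at 0.02, Mre11a to Rad50 at 0.72 and Atr to Atm at 0.30, by the change of length alone. Leaving out 1 library reversed no partner ratio, with a range of -1.20 to -1.11 for Atr to Atm and 1.15 to 1.32 for Chek1 to Chek2. Of the members' mean levels, 36 of 39 moved by more than 1 SD per coding transcript, by 0.684 to 1.99 times, and 13 of 39 in TPM over protein-coding genes, where all 39 were higher, by 1.06 to 1.07 times. The alternative with protein lengths was not run. The exact sign-flip test cannot pass 0.05 with 4 libraries (smallest p 0.125), and depth was not limiting, at 350 or more fragments behind every member's value.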
